A study of Mus musculus with 62 samples.

Results

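GABA-A receptors are the chloride channels that carry most fast inhibition in the forebrain, and each is a pentamer assembled from several subunit families. The genes described here are Gabra2, Gabra3, Gabra4 and Gabra5, which encode alpha subunits, Gabrb1 and Gabrb2, which encode beta subunits, and Gabrd, which encodes the delta subunit. They were chosen by symbol, as rows of the deposited count tables whose Ensembl identifier maps to those names. All 7 have a row in the table of the nucleus accumbens (NAc) and prefrontal cortex (PFC), which holds 11569 rows, and 6 have one in the table of the suprachiasmatic nucleus (SCN), which holds 12047 rows; together the tables hold 12483 genes. Gabrd was not analysed here in the SCN.

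The study punched these regions from frozen brains of female and male C57BL/6J mice, taken at ZT6, about 4 weeks after circadian rhythm disruption (CRD) by repeated reversal of the light cycle, or after control handling. The sample protocol names CRD in adolescence and in adulthood with matching controls, while the methods of the study name adolescent CRD and its controls. RNA-seq libraries of 62 punches from 26 mice were used: 19 were of the SCN, 26 of the NAc (labelled NAC) and 17 of the PFC. Region and mouse are known for each library. CRD, the age at which it was given and sex are not in the labels, so each region holds them mixed and they entered no test.

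The alpha and beta subunits together form the sites that bind GABA, and the alpha subunit sets much of the affinity for GABA and the response to benzodiazepines. Gabrd takes the place of a gamma subunit in receptors that lie outside synapses and carry tonic inhibition, in the forebrain often beside the product of Gabra4. Most SCN neurons and the projection neurons of the NAc release GABA, while most PFC neurons release glutamate.

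Total counts lay between 16496666 and 35389742 per SCN library, 28879724 and 60009482 per NAc library, and 31216225 and 50333579 per PFC library. Levels are CPM, each count divided by the total of its library, with totals scaled by TMM over all 62 libraries on the 11133 rows that both tables hold. The lowest count behind any member's value was 149, for Gabra2 in an SCN library. Striatal neuron markers, led by Penk and Pde10a, summed to 1689 to 3953 CPM in the NAc (10 of 10 genes), 74.2 to 165 CPM in the PFC (10 of 10) and 121 to 790 CPM in the SCN (8 of 10), where SCN J1199 was highest. Cortical glutamatergic markers, led by Slc17a7, the vesicular glutamate transporter of cortical projection neurons, and Neurod6, summed to 833 to 985 CPM in the PFC (7 of 7) and 12.1 to 471 CPM in the NAc (7 of 7). SCN neuron markers, led by Avp and Syt10, summed to 78.5 to 414 CPM in the SCN (9 of 9), and the 3 of 9 in the other table to 12.2 to 34.1 CPM in the NAc and 21.9 to 31.6 CPM in the PFC. Each region thus carried the markers its label calls for. NAc libraries differed widely in Slc17a7, from 0.755% to 55.9% of the PFC median. These percentages, here and below, are from CPM scaled over the NAc and PFC libraries alone. The SCN was deposited in a table of its own, so region and table cannot be told apart there. In bulk tissue, fewer cells of a type and less RNA per cell cannot be told apart.

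The annotation (GRCm38, GENCODE M21) places Gabra2 (ENSMUSG00000000560) at chr5:70957597-71095849 on the minus strand, Gabra4 (ENSMUSG00000029211) at chr5:71569749-71658308 on the minus strand and Gabrb1 (ENSMUSG00000029212) at chr5:71658113-72149037 on the plus strand. These 3 genes lie close together, and Gabra4 and Gabrb1, transcribed away from each other, share 46 bp of exon at their 5′ ends, of 6083 bp in Gabra4 and 13838 bp in Gabrb1. Gabra5 (ENSMUSG00000055078) lies at chr7:57407672-57510059 on the minus strand and shares 148 bp of its 2974 bp of exon with the antisense gene Gm9962. Gabrb2 (ENSMUSG00000007653) lies at chr11:42419757-42629028 on the plus strand, Gabra3 (ENSMUSG00000031343) at chrX:72432681-72656848 on the minus strand and Gabrd (ENSMUSG00000029054) at chr4:155384980-155398112 on the minus strand. All are protein-coding genes. Whether the libraries keep strand is not given in the sources used here, so reads from shared exon cannot be assigned to a strand.

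RefSeq upstream windows (GRCm38.p6, 250 bases before to 50 after a start) were given for 6 of the members, 10 windows in all. Stretches before a start, outside annotated exons, are printed for Gabra4 and Gabra3, whose levels differed in opposite directions between NAc and PFC, and for Gabrb1, which starts beside Gabra4 and whose level differed least; the Gabrb1 stretch lies before the inner of its RefSeq starts. They are written 5′ to 3′ on the strand of the gene, from chr5:71658364-71658558 for Gabra4, chrX:72656920-72657169 for Gabra3 and chr5:71699825-71699931 for Gabrb1, and capitals mark the motifs found, which read as the reverse complement where they lie on the other strand.
Gabra4: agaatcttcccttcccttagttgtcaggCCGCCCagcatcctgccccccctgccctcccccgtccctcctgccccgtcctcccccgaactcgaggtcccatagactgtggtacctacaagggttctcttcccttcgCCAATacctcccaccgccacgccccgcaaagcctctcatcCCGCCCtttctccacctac
Gabra3: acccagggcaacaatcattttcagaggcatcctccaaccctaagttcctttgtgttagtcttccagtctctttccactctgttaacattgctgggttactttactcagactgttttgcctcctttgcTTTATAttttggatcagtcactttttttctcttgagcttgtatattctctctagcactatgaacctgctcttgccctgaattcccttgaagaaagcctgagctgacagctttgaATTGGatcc
Gabrb1: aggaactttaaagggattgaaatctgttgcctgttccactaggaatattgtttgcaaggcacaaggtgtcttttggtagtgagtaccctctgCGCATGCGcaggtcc
The motifs named here were searched on both strands, and none overlapped another in these stretches. The Gabra4 stretch holds GGGCGG at 2 places, a motif found in 35.7% of all 32851 windows. It also holds CCAAT, found in 37.4% of windows. The Gabra3 stretch holds TATAAA (13.6% of windows) and the CCAAT motif and has no CpG, and both Gabra3 windows have 0 CpG, which 5.43% of all windows share. Gabrb1 alone among the members has CGCATGCG, which 1.87% of windows hold. That match lies in the window of its inner start. The window at the start beside Gabra4 (chr5:71657671-71657970) holds none of the motifs searched and is not printed. The motif CACGTG (7.15% of windows) was in none of the 10 windows, nor was TGACGTCA (1.79%). The Gabra2 window was the richest in GC, at 70% with 25 CpG, against medians of 52.7% and 7 CpG over all windows. These matches describe the letters of the windows.

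In the NAc against the PFC, transcripts of Gabrd, Gabra4 and Gabra2 were higher and those of Gabra3, Gabra5 and Gabrb2 lower, while Gabrb1 did not pass the test. Calls needed a fold change of at least 1.2 and, in edgeR's quasi-likelihood test over all 11569 rows, a p under 0.05 after Benjamini-Hochberg adjustment. Of the 7 members, 3 were called higher, where 23.7% of all rows were, and 3 lower, where 21.7% of all rows were. The regions differ in a large share of all genes, so the calls are read by their size. The median log2 fold change of the members was -0.16, beside 0.02 over all rows.

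**Figure D1:**
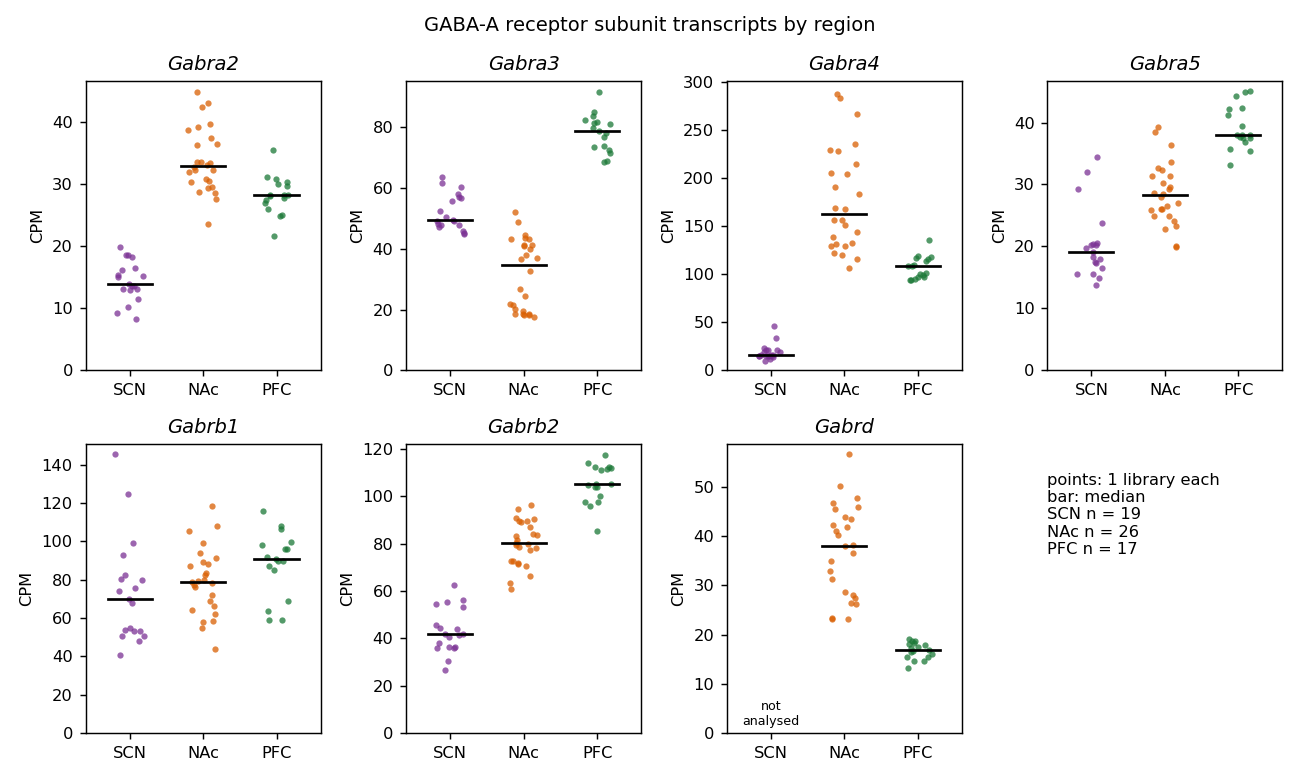
CPM (vertical axes, linear from 0) of the 7 subunit transcripts in each library, by region; points are libraries and bars are medians. For Gabra4 every SCN library lies below the other regions, the NAc and PFC do not overlap for Gabra3 and Gabrd, and Gabrb1 overlaps in all 3 regions.

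Gabrd showed the clearest rise in the NAc. It ranged from 23.2 to 56.7 CPM over NAc libraries (median 38.1) and from 13.2 to 19.1 CPM over PFC libraries (median 17). Every NAc library was above every PFC library, and Gabrd was higher in the NAc in 17 of 17 mice with both regions. The log2 fold change was 1.15 (SE 0.096, adjusted p = 1.87e-14), a 2.22-fold difference.

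Gabra3 differed by more, in the other direction. It ranged from 17.5 to 52.0 CPM over NAc libraries (median 34.7) and from 68.7 to 91.6 CPM over PFC libraries (median 79.0). All NAc libraries were below all PFC libraries, and Gabra3 was lower in the NAc in 17 of 17 mice. The log2 fold change was -1.29 (SE 0.127, adjusted p = 2.31e-12), a 2.45-fold difference. The NAc libraries were uneven in Gabra3: 12 lay between 17.5 and 26.7 CPM and 14 between 32.7 and 52.0 CPM, with none between. The PFC libraries were close together, with an SD of 6.15 CPM against 11.6 CPM in the NAc.

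Gabra4 had the highest count of all members in 26 of 26 NAc libraries and in 10 of 17 PFC libraries, where Gabrb2 led in 6. It ranged from 106 to 287 CPM over NAc libraries (median 162) and from 94.1 to 135 CPM over PFC libraries (median 108). The ranges overlapped: 18 of 26 NAc libraries lay above every PFC library, and 15 of 17 mice had more Gabra4 in the NAc. Its log2 fold change was 0.73 (SE 0.107, adjusted p = 9.48e-08), or 1.65-fold. The difference was 0.99 (adjusted p = 2.36e-05) in mice numbered up to J1021 and 0.50 (adjusted p = 0.00119) in those from J1140.

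Smaller differences were seen in the remaining alpha genes. Gabra5, an alpha subunit known mainly from the hippocampus and from receptors outside synapses, ranged from 19.9 to 39.2 CPM over NAc libraries (median 28.2) and from 33.1 to 45.1 CPM over PFC libraries (median 38.0). It was lower in the NAc in 16 of 17 mice, with a log2 fold change of -0.46 (SE 0.065, adjusted p = 4.21e-08), although the ranges overlapped. Gabra2, a synaptic alpha subunit, ranged from 23.6 to 44.7 CPM over NAc libraries (median 32.9) and from 21.7 to 35.4 CPM over PFC libraries (median 28.1). Its log2 fold change of 0.26 (SE 0.061, adjusted p = 1.91e-04) was 1.2-fold, at the threshold, and 14 of 17 mice had more in the NAc. In the upper range of mouse numbers it was 0.21 (adjusted p = 0.00937), under the fold threshold.

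Of the beta genes, Gabrb2 passed the test and Gabrb1 did not; whether their differences were unequal was not tested. Gabrb2, the beta subunit of many cortical receptors, ranged from 60.7 to 96.2 CPM over NAc libraries (median 80.1) and from 85.5 to 118 CPM over PFC libraries (median 105). It was lower in the NAc in 17 of 17 mice, by a log2 fold change of -0.39 (SE 0.048, adjusted p = 1.24e-09), and 18 of 26 NAc libraries lay below every PFC library. Gabrb1 ranged from 43.9 to 119 CPM over NAc libraries (median 79.0) and from 58.9 to 116 CPM over PFC libraries (median 91.0). It was lower in the NAc in 11 of 17 mice and higher in 6, and its log2 fold change was -0.16 (SE 0.093, adjusted p = 0.141, 95% interval -0.34 to 0.03). A fall of up to 0.34 on this scale thus lies within the interval.

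Mitochondrial and ribosomal RNA genes took 45.4 to 75.2% of the counts of an NAc library and 49.5 to 67.2% of a PFC library, and Gabra4 and Gabrb1 varied with that share inside both regions. In the NAc, Gabra4 was highest in NAc J965 (287 CPM), NAc J1019 (283 CPM) and NAc J1018 (267 CPM), the libraries with the largest shares, and Gabrb1 lowest in NAc J1019 (43.9 CPM) and NAc J965 (54.7 CPM). Slc17a7 was also low in NAc J965, NAc J1019 and NAc J1018, at 0.755%, 2.33% and 2.54% of the PFC median. It was as low in NAc J1177 (1.25%) and NAc J1021 (1.32%), where the shares were 57.4% and 54.6%. Gabra3 was low in NAc J965 (17.5 CPM), NAc J1019 (18.4 CPM) and NAc J1018 (18.6 CPM). It was also low in NAc J1198 (18.1 CPM, share 64.6%), NAc J1017 (18.1 CPM, share 68.8%), NAc J1021 (18.4 CPM, share 54.6%) and NAc J1164 (19.5 CPM, share 52.5%). In the PFC, PFC J1160 had the largest share, the most Gabra4 (135 CPM) and the least Gabrb1 (58.9 CPM). With the share as a covariate, chosen after these values were seen, each member kept its call in the NAc against the PFC. The log2 fold change of Gabra4 was then 0.59 (adjusted p = 1.95e-11), of Gabra3 -1.24 and of Gabrb1 -0.07 (adjusted p = 0.300).

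**Figure D2:**
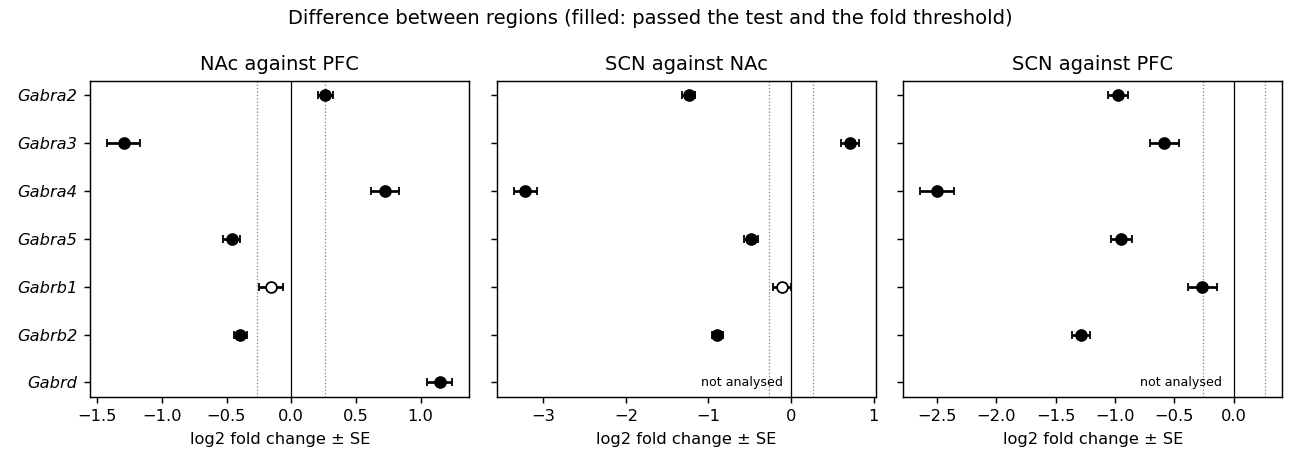
Log2 fold changes (horizontal axes, ± SE) of the members between regions; filled points passed the test and the 1.2-fold threshold, which dotted lines mark. Gabra4 has the most negative value in both SCN panels, -3.22 against the NAc and -2.50 against the PFC.

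In the SCN, Gabra4 was far lower than in either forebrain region, and Gabra3 lay between the NAc and the PFC. These comparisons were fitted on the rows both tables hold, over all 62 libraries, and they share the SCN libraries. Against the NAc, 1 of 6 members was called higher and 4 lower, where 33.1% and 31% of the 11133 rows were. Against the PFC, 0 of 6 were called higher and 6 lower, where 33.7% and 31% of rows were. The median log2 fold change of the members was -0.69 against the NAc, beside 0.02 over all rows, and -0.96 against the PFC, beside 0.03.

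Gabra4 ranged from 9.69 to 46.3 CPM over SCN libraries (median 15.9). No SCN library overlapped with either other region, and Gabra4 was lower in the SCN in 19 of 19 mice with an NAc library and 12 of 12 with a PFC library. The log2 fold change was -3.22 (SE 0.139, adjusted p = 7.98e-31) against the NAc, 9.30-fold, and -2.50 (SE 0.141, adjusted p = 6.49e-25) against the PFC, 5.64-fold. The highest SCN values, 46.3 CPM (SCN J1199) and 33.9 CPM (SCN J1140), came from the libraries that also led in Ppp1r1b, a striatal neuron marker, with 118 and 60.3 CPM beside an SCN median of 4.66 CPM. Without both libraries the difference was -3.42 against the NAc and -2.70 against the PFC.

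Gabra3 ranged from 45.0 to 63.8 CPM over SCN libraries (median 49.4). It was below every PFC library, with a log2 fold change of -0.59 (SE 0.120, adjusted p = 1.58e-05), and above the NAc in 18 of 19 mice, with a log2 fold change of 0.71 (SE 0.108, adjusted p = 2.69e-08). The SCN and NAc ranges overlapped. Gabra3 was the only one of the 6 members that was higher in the SCN than in the NAc by this test.

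Gabra2 and Gabrb2 were lower in the SCN throughout. Gabra2 ranged from 8.16 to 19.8 CPM (median 13.8), below all NAc and all PFC libraries. Its log2 fold change was -1.24 (SE 0.076, adjusted p = 3.81e-23) against the NAc and -0.98 (SE 0.082, adjusted p = 4.83e-17) against the PFC. Gabrb2 ranged from 26.7 to 62.6 CPM (median 41.8), and 18 of 19 SCN libraries lay below every NAc library. The log2 fold change of Gabrb2 was -0.89 (SE 0.067, adjusted p = 3.08e-19) against the NAc and -1.29 (SE 0.072, adjusted p = 4.95e-25) against the PFC.

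Gabra5 ranged from 13.8 to 34.4 CPM over SCN libraries (median 19.2). It overlapped with both regions, and its log2 fold change was -0.49 (SE 0.082, adjusted p = 2.99e-07) against the NAc and -0.95 (SE 0.089, adjusted p = 5.96e-15) against the PFC. The 3 highest libraries stood above the rest, from 29.2 to 34.4 CPM, while the other 16 reached 23.8 CPM. Gabrb1 ranged from 40.8 to 146 CPM over SCN libraries (median 70.1), and 17 of 19 libraries reached at most 99.1 CPM. SCN J1159 (146 CPM) and SCN J1157 (125 CPM) stood above them, and they were also the deepest SCN libraries, with mitochondrial and ribosomal RNA at 36.6% and 31.5% of counts beside an SCN median of 56.5%. Its log2 fold change was -0.11 against the NAc (SE 0.112, adjusted p = 0.375, 95% interval -0.33 to 0.11). Without those libraries it was -0.25 (adjusted p = 0.0213) and with the share as a covariate -0.26 (adjusted p = 0.00207), both under the fold threshold. Against the PFC it was -0.27 (SE 0.123, adjusted p = 0.0457), just past both thresholds. That call was lost with the mouse as a block, over the 12 mice with both regions (-0.19, adjusted p = 0.241), as it was over these mice without the block (-0.11, adjusted p = 0.596), and without SCN J1199 and SCN J1140 (-0.27, adjusted p = 0.0531). It held without SCN J1157 and SCN J1159 (-0.42, adjusted p = 0.000451) and with the share as a covariate (-0.33, adjusted p = 0.000343).

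To compare genes with each other, levels were divided by the length of annotated exon, as CPM per kilobase. In the NAc the order of medians was Gabra4 (26.7 CPM per kilobase), Gabrd (13.2), Gabrb2 (12.6), Gabra5 (9.49), Gabra3 (8.84), Gabrb1 (5.71) and Gabra2 (4.30). Gabra4 was above Gabrd in 26 of 26 NAc libraries, whereas Gabrd was above Gabrb2 in 14 of 26 and Gabra5 above Gabra3 in 14 of 26, so these neighbours did not differ beyond their spread.

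In the PFC the order of medians was Gabra3 (20.1 CPM per kilobase), Gabra4 (17.8), Gabrb2 (16.5), Gabra5 (12.8), Gabrb1 (6.58), Gabrd (5.90) and Gabra2 (3.68). Between the first and the next, and between Gabra4 and Gabrb2, ranges overlapped, and the first was above the next in 14 of 17 and 12 of 17 libraries. Gabra5 was above Gabrb1 in all 17, with no overlap.

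In the SCN the order of medians was Gabra3 (12.6 CPM per kilobase), Gabrb2 (6.58), Gabra5 (6.44), Gabrb1 (5.06), Gabra4 (2.61) and Gabra2 (1.81). Gabra3 was above Gabrb2 in 19 of 19 libraries with no overlap. Gabrb2 was above Gabra5 in 9 of 19, so these did not differ beyond their spread. Gabra2 was last in each region, also per kilobase of the longest transcript. By that length Gabrb2 (20.1) passed Gabrd (14.1) in the NAc, and Gabra4 (26.36) and Gabrb2 (26.35) passed Gabra3 (21.6) in the PFC.

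Shares of a class within a library need no scaling between libraries, and are given with no test. Of the CPM per kilobase of the 4 alpha genes, Gabra4 made up 40.8 to 71.1% across NAc libraries (median 53.8%), 28.4 to 39.7% across PFC libraries (median 32.1%) and 7.78 to 25.7% across SCN libraries (median 11.1%). It was highest in NAc J1019 (71.1%), NAc J1018 (70.6%) and, in the PFC, PFC J1160, which were high in mitochondrial and ribosomal RNA. In the SCN it was lowest in SCN J1157, where that RNA was lowest. Gabra3 made up 6.64 to 27.4% across NAc libraries (median 16.8%), 31.4 to 42.3% across PFC libraries (median 36.7%) and 42.2 to 60.9% across SCN libraries (median 54.4%). The regions did not overlap in either share, except that the highest Gabra3 share in the PFC, 42.3% in PFC J1021, passed the lowest in the SCN, 42.2% in SCN J1199.

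For NAc, PFC and SCN in turn, the median share of Gabra5 was 18.4%, 23.8% and 26%, and that of Gabra2 8.79%, 6.69% and 7.42%. The ratio of Gabra4 to Gabra3 had a median of 3.26 over NAc libraries (1.49 to 10.6), 0.845 over PFC libraries (0.683 to 1.27) and 0.209 over SCN libraries (0.138 to 0.609). It was above 1 in 26 of 26 NAc libraries, 3 of 17 PFC libraries and 0 of 19 SCN libraries. Which of the genes leads in the PFC depends on the length used, since without division by exon length Gabra4 held 42.1% and Gabra3 31.1%. Without that division the Gabra4 shares of NAc and PFC overlapped, with an NAc low of 50.39% and a PFC high of 50.46%. Other alpha genes are not in these shares. With every alpha row of the tables as the base, Gabra4 in the NAc held 39.3% and Gabra3 in the SCN 33.8%. On that base the Gabra4 share of the PFC, 15.6 to 23.7%, overlapped with both other regions. The SCN reached 17.1% and the NAc fell to 23.2%.

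Of the beta genes, Gabrb1 made up 32.7 to 61.4% across SCN libraries (median 40.8%), 23.2 to 40.8% across NAc libraries (median 29.9%) and 21.8 to 32.3% across PFC libraries (median 28.1%). The highest SCN shares, 61.4% and 55.2%, were those of SCN J1157 and SCN J1159. The lowest SCN share lay just above the highest PFC share, and the NAc overlapped with both. Gabrb2 makes up the rest. The long exons of Gabrb1 weigh on this share, which was 60.0% in the SCN without division by length. With every beta row of the tables as the base, SCN and PFC overlapped, with an SCN low of 14.5% and a PFC high of 15.4%. On that base the median was lower in the NAc (11.5%) than in the PFC (13.1%).

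**Figure D3:**
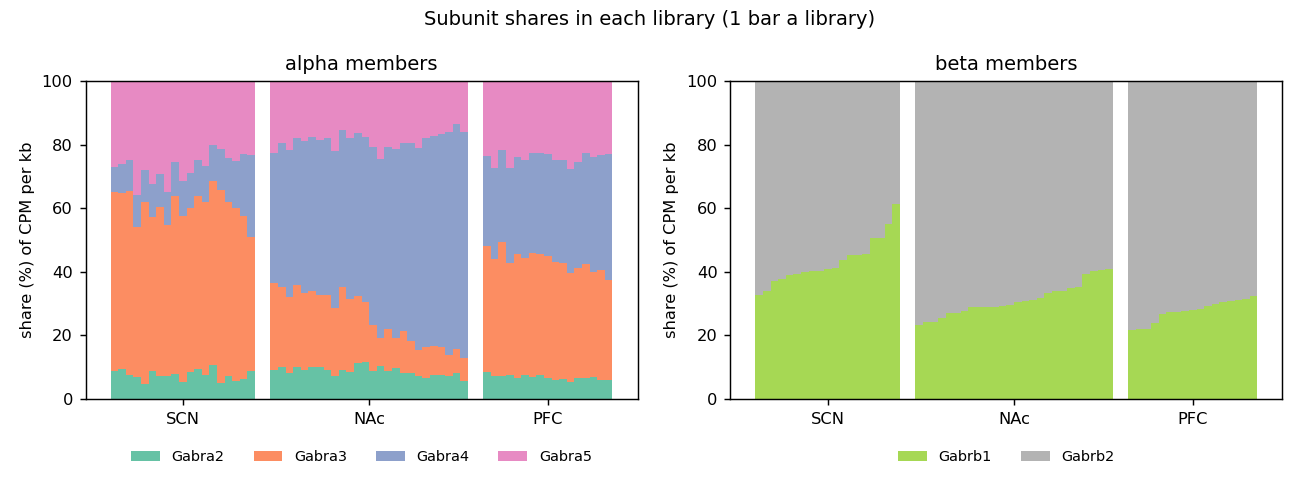
Shares (percent of CPM per kilobase, vertical axes) of the 4 alpha genes and of the 2 beta genes in every library, 1 bar a library, sorted within a region by the share of Gabra4 or Gabrb1. Gabra4 takes the largest part in the NAc and Gabra3 in the SCN.

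Since NAc libraries differed in Slc17a7, each member was fitted against log2 CPM of Slc17a7 over the 26 NAc libraries. Gabra3 rose with it, and Gabra4, Gabrd and Gabra5 fell. Of the 7 members, 1 was called with a positive slope, where 19.9% of 11568 rows were, and 3 with a negative one, where 20.4% were. Per doubling of Slc17a7, the log2 level of Gabra3 changed by 0.25 (SE 0.039, adjusted p = 2.21e-05), of Gabra4 by -0.18 (SE 0.031, adjusted p = 5.82e-05), of Gabrd by -0.14 (SE 0.032, adjusted p = 0.00145) and of Gabra5 by -0.068 (SE 0.024, adjusted p = 0.0291).

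The slopes of Gabra3 and Gabra4 held within both ranges of mouse numbers, at 0.25 and 0.27 for Gabra3 and -0.17 and -0.18 for Gabra4. That of Gabrd was -0.11 (adjusted p = 0.131) in the lower range and -0.19 (adjusted p = 0.00368) in the upper. The slope of Gabra5 was past the threshold in neither range, with adjusted p = 0.113 and adjusted p = 0.279, nor without NAc J965 and NAc J1177, the libraries farthest from the median of Slc17a7 (adjusted p = 0.143). Gabra2 (-0.03, adjusted p = 0.261), Gabrb1 (0.04, adjusted p = 0.404) and Gabrb2 (0.04, adjusted p = 0.104) did not pass the test. With the mitochondrial and ribosomal RNA share as a covariate, the slopes were 0.19 for Gabra3 (adjusted p = 0.00348), -0.10 for Gabra4 (adjusted p = 0.00789), -0.13 for Gabrd (adjusted p = 0.0159) and -0.066 for Gabra5 (adjusted p = 0.118), so Gabra5 lost its call. In that fit 982 of 11568 rows were called with a positive slope and 758 with a negative one, beside 2303 and 2361 without the covariate. Of the 7 members, 1 had a called positive slope and 2 a negative one.

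In the 8 NAc libraries with over 20% of the PFC median of Slc17a7, Gabra3 ranged from 36.7 to 52.0 CPM, and in the other 18 from 17.5 to 44.6 CPM. Without those 8, the log2 fold change against the PFC was -1.55 for Gabra3, 0.87 for Gabra4 and 1.26 for Gabrd, each farther from 0 than with all libraries. Those of Gabra2 (0.30) and Gabrb2 (-0.45) were also farther from 0. Gabra5 (-0.43, beside -0.46 with all libraries) and Gabrb1 (-0.14, beside -0.16) were slightly nearer. What part Slc17a7-expressing tissue has in the values of the remaining libraries was not tested.

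**Figure D4:**
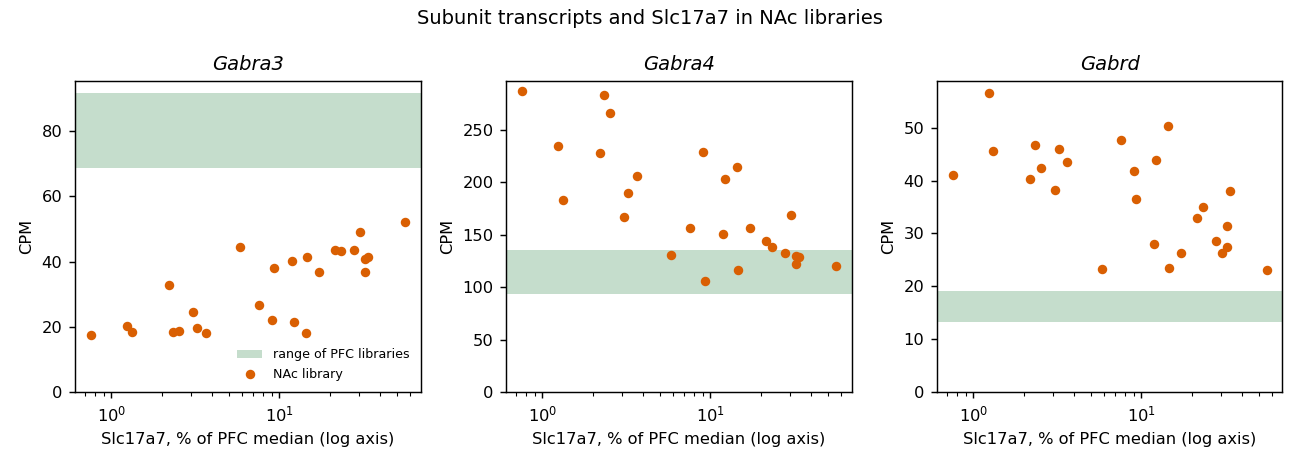
CPM of Gabra3, Gabra4 and Gabrd (vertical axes) in the 26 NAc libraries against Slc17a7 as a percent of its PFC median (horizontal log axes); shaded bands span the PFC libraries. Gabra3 stays below the band and Gabrd above it in every NAc library, while the lowest Gabra4 values fall in the band.

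In the SCN, each member was fitted against a score of 9 SCN neuron markers, the mean z-score of log2 CPM, over 19 libraries. Gabra4 and Gabra5 fell as the score rose. Of the 6 members, 0 were called with a positive slope, where 1.59% of 12038 rows were, and 2 with a negative one, where 1.9% were. The log2 level changed per unit of score by -0.47 for Gabra4 (SE 0.092, adjusted p = 0.00427) and by -0.31 for Gabra5 (SE 0.068, adjusted p = 0.0102).

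The slope of Gabra4 was -0.24 (adjusted p = 0.185) without SCN J1199 and SCN J1140. It was -0.20 (adjusted p = 0.519) among the lower mouse numbers and -0.64 (adjusted p = 0.0102) among the upper, and -0.48 (adjusted p = 0.0734) without SCN J1199 and SCN J1018, the libraries farthest from the median score. That of Gabra5 was -0.42 (adjusted p = 0.00213) without SCN J1199 and SCN J1140, -0.49 (adjusted p = 0.0221) in the lower range and -0.15 (adjusted p = 0.655) in the upper. Gabra3 (-0.08, adjusted p = 0.394), Gabra2 (-0.17, adjusted p = 0.363), Gabrb2 (-0.13, adjusted p = 0.498) and Gabrb1 (0.08, adjusted p = 0.813) did not pass the test.

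**Figure D5:**
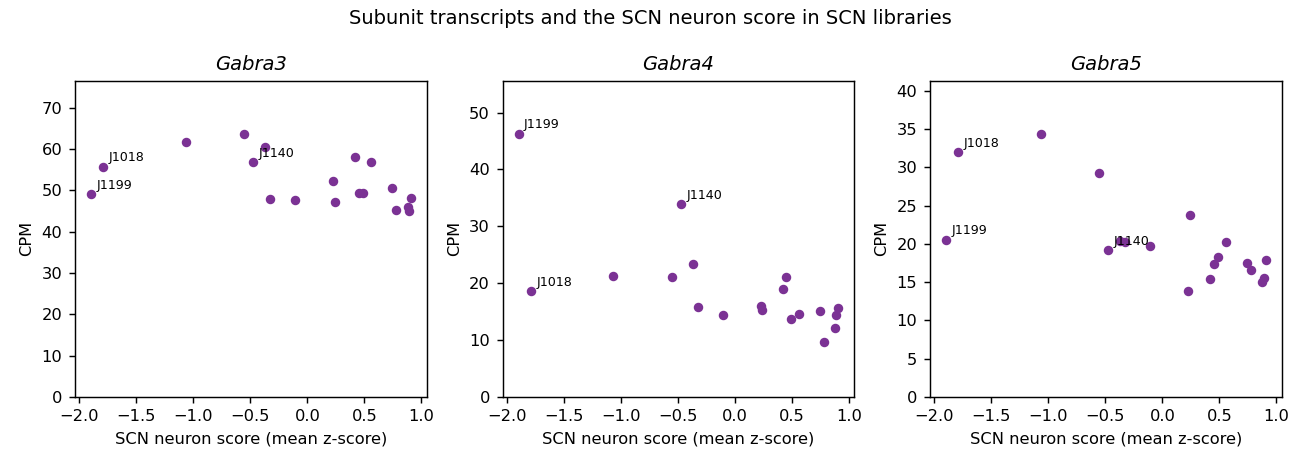
CPM of Gabra3, Gabra4 and Gabra5 (vertical axes) in the 19 SCN libraries against the SCN neuron score (mean z-score of 9 markers). The Gabra4 values of SCN J1199 and SCN J1140 stand above the rest, and the highest Gabra5 values are in libraries with a score below 0.

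Within regions, with the NAc and the PFC pooled, the members did not vary together as a group. After the region mean was taken from log2 CPM in the 43 NAc and PFC libraries, Gabrd and Gabra4 had a Pearson r of 0.673, Gabra3 and Gabra4 of -0.803, and Gabra3 and Gabrd of -0.82. The NAc libraries weigh most on these values, and no r was taken within 1 region alone. The SD of Gabra3 CPM was 36.5% of its mean in the NAc and 7.86% in the PFC, and that of Gabra4 30.2% and 10.7%. The libraries share the differences in Slc17a7 and in mitochondrial and ribosomal RNA given above, and the values of r are a description. Among 8933 other protein-coding genes with a mean of at least 5 CPM, the pattern of Gabra4 was most like those of Arpp19 (r = 0.969) and Smarca1 (0.958). That of Gabra3 was most like Calb2 (0.948), Camk2d (0.944) and Gng2 (0.942), and that of Gabrd most like Fcho1 (0.888), Mbtps1 (0.857) and Ptpn5 (0.851). Gabrb1 was nearest to Huwe1 (0.928), Arhgap21 (0.918) and Peak1 (0.917), Gabra2 to Plppr4 (0.773), Tcaf1 (0.721) and Marcks (0.705), and Gabra5 to St3gal5 (0.732), Ptn (0.703) and Stk38l (0.673). Acsl4 (0.721) and Prepl (0.717) were among the nearest to Gabrb2. The likeness of Gabra2, Gabra5 and Gabrb2 to their nearest genes was weaker than that of the other members.

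Other genes of GABA signalling were read from the same comparison of the NAc with the PFC. Of 47 tested outside the members, 21 were called higher, beside 23.7% of all rows, and 10 lower, near the 21.7% of all rows. These shares of all rows are the background of each list below. Among the GABA-A subunit genes that are not members, 5 were tested, of which 3 were higher and 1 lower, with a median log2 fold change of 0.32. Gabrg1 and Gabrg3, which encode gamma subunits, were higher in the NAc, by 0.87 (SE 0.081, adjusted p = 6.65e-13) and 0.88 (SE 0.067, adjusted p = 9.30e-16). For NAc, PFC and SCN in turn, median levels were 45.0, 24.6 and 87.8 CPM for Gabrg1 and 46.0, 25.4 and 36.2 CPM for Gabrg3. Gabrq and Gabre, which encode theta and epsilon subunits, had SCN medians of 32.4 and 12.8 CPM, and were not analysed here in the other regions.

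The genes of GABA synthesis, transport and breakdown were called higher in 5 of 8 and lower in 0, with a median of 1.03; over the 17 mice with both regions, with or without the mouse as a block, 1 was called lower, Slc38a1, an amino acid transporter, as it also was among the lower mouse numbers alone. Gad2 (log2 fold change 2.78), which makes GABA, Slc32a1 (2.47), which loads it into vesicles, and Gad1 (1.57), the other synthetic enzyme, had the largest differences. Anchoring and assembly genes were split, with 7 of 20 higher, 3 lower and a median of 0.06. Gphn, the scaffold of inhibitory synapses, was higher by 0.52 (SE 0.038, adjusted p = 2.73e-16), Hap1, a trafficking partner, by 1.26, and Shisa7, an auxiliary subunit, by 0.46. Iqsec3 (-0.52), Dmd (-0.46), the dystrophin of inhibitory synapses, and Nsf (-0.45), which acts in receptor trafficking, were lower.

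All 6 genes of GABA-B receptors, the slower metabotropic receptors, were called, 4 higher and 2 lower, with a median of 0.33. Among the upper mouse numbers alone, 3 were called higher and 2 lower, as with the mitochondrial and ribosomal RNA share as a covariate. Levels of Kctd12b were low, with medians of 3.83 CPM over NAc and 2.93 CPM over PFC libraries. Kctd8 (2.99), Kctd12 (1.07) and Kctd12b (0.38), which encode auxiliary subunits, were higher, and Gabbr2 (-1.33), a principal subunit, and Kctd16 (-0.45) were lower. Of the chloride transport genes, 2 of 8 were higher and 4 lower, with a median of -0.18. Slc12a2 (0.90), which brings chloride into cells, and Wnk1 (0.62), a kinase that regulates it, were higher, and Clcn2 (-0.77), Stk39 (-0.47) and Wnk2 (-0.41) lower. Slc12a5, the chloride exporter of mature neurons, had a median of 199.6 CPM over NAc and 208.8 CPM over PFC libraries and did not pass the test (-0.03, adjusted p = 0.685).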

How the data were processed

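Gene counts of 62 libraries were analysed. Per the paper's methods, the authors used a low-input SmartSeq HT kit and paired-end sequencing, checked reads with FastQC 0.11.7, aligned them to GRCm38 with HISAT2, and took gene counts from HTSeq (union mode). The deposited counts are not normalized. The methods name filters on low CPM, by region, and on Y-linked genes, and a gene can have a row in 1 table only.

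Members and gene lists were chosen with earlier results of these data known. All rows of a table were fitted with edgeR 4.0.16 (quasi-likelihood, TMM, filterByExpr, which removed 0 rows) in R 4.3.3, with Benjamini-Hochberg adjustment over all rows; region calls also needed a fold of 1.2. DESeq2 1.42.0 was an alternative, and the scripts were tested on simulated data. Annotation matched 11545 of 11569 and 12020 of 12047 rows. CPM was scaled by TMM over the shared rows, and exon length is the union of annotated exons. Log2 CPM, with a prior count of 2, and the Slc17a7 percentages were scaled within each deposited table, the SCN apart from the NAc and PFC. Genes named outside the members were, per list, up to 3 called genes with the largest fold change in each direction, the other subunits, the leading markers, and the 3 nearest in pattern; Slc12a5, Slc38a1 and Insyn1 were named after their values were seen. Some subunit, marker and like-pattern genes are not reported here. Calculations outside R used Python 3.11.15, numpy 2.4.6 and pandas 2.3.3.

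Libraries with the same mouse number come from the same animal, which pairs them: 17 mice had NAc and PFC, 19 SCN and NAc, and 12 SCN and PFC. The correlation of a mouse's NAc and PFC deviations from region means ranged from -0.449 to 0.272 and was over 0.1 in 7 of 17. No 2 libraries held the same counts. Results were recomputed within the lower (up to J1021) and upper (from J1140) mouse numbers, with a mouse block, with DESeq2 or only its scaling, with other filters on low rows, leaving out libraries that stood apart or mitochondrial and ribosomal RNA genes (31.5 to 75.2% of counts), with the share of those genes as a covariate, and with other lengths and bases for shares. CRD and sex were not tested.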

Additional observations from a re-analysis of the deposited data

How the results depend on the processing

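Of 203 refitted values of the members between regions, 196 kept their direction and their side of the thresholds, 7 fell short of a threshold and 0 changed direction. The 7 were Gabra2 in the NAc against the PFC, at 0.21 among the upper mouse numbers and 0.26 on the rows both tables hold, and Gabrb1 in the SCN against the PFC, in 5 refits, from -0.11 to -0.27. With the mouse as a block, 6 of 7 members were called in the NAc against the PFC, as without it, 5 of 6 in the SCN against the NAc and 5 of 6 against the PFC; among the members no call but that of Gabrb1 was lost under it, and the same mice without the block gave these counts too. Among the other GABA genes, Insyn1 (0.27 over all libraries) was lost and Slc38a1 (-0.19 over all libraries) and 1 more gained in the same mice, with the block and without it; 30 to 32 of these genes were called under the alternatives. Of 103 refitted slopes, 90 kept direction and side, 9 fell short and 4 changed direction, none of which had passed the test: Gabrb2 with the SCN neuron score was 0.0046 in the lower range, Gabrb1 with that score was -0.0999 with the mitochondrial and ribosomal RNA share as a covariate and -0.0626 without SCN J1157 and SCN J1159, and Gabrb1 with Slc17a7 was -0.0481 with the share as a covariate. The covariate and the fits without SCN J1157 and SCN J1159 were chosen after seeing the data. Calls of slopes in the NAc numbered 2 in the lower range. Calls in the SCN numbered 1 in each range of mouse numbers, 1 without the libraries farthest from the median (SCN J1199 and SCN J1018) and 1 without SCN J1199 and SCN J1140.

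Shares moved with the length and with the base. Without division by length, Gabra3 in the PFC held 31.1%, and Gabrb1 60.0% (SCN), 48.1% (NAc) and 46.0% (PFC). With the longest transcript, these were 32.2%, 30.3%, 21.2% and 19.8%. With every alpha or beta row of the tables as the base, Gabra3 held 33.8% in the SCN and 19.9% in the PFC, Gabra4 39.3% in the NAc, and Gabrb1 17.8%, 11.5% and 13.1% in the SCN, NAc and PFC. Each of these follows from the length or base used. In the NAc, shares also moved with the libraries used. Without the 8 NAc libraries over 20% of the PFC median of Slc17a7, the median share of Gabra3 was 10.0%, beside 16.8% with all. That of Gabra4 was 59.3%, beside 53.8%. Counts of 149 or more lie behind every member's value; the SCN comparisons rest on tables filtered apart.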
